A study of Mus musculus with 9 samples.

Results

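The 9 genes described here encode the core of the β-catenin destruction complex and the Dishevelled proteins: Apc, Axin1, Gsk3a, Gsk3b, Csnk1a1, Btrc, Dvl1, Dvl2 and Dvl3. They were chosen by name, as every probe set on the array whose single gene symbol is one of the 9, out of 18193 genes named alone by at least 1 probe set. They have 28 probe sets among 34945 with a single gene symbol. RNA was measured on 9 arrays, 1 for each of 9 C57Bl/6 mice, all of which carried the R26NC/NC alleles of an activated β-catenin. The tumour group held unsorted thymic tumours of 4 R26NC/NC CD4Cre+ mice aged 28, 26, 23 and 21 weeks (tumours 1 to 4), at least 95% CD8+CD4+ cells. The pre-transformed group held sorted CD8+CD4+ double-positive thymocytes of 3 R26NC/NC CD4Cre+ mice aged 6 weeks, before any tumour and with thymi of normal size. Sorted double-positive thymocytes of 2 R26NC/NC CD4Cre- mice aged 6 weeks were the control group. The CD4Cre transgene acts in T-lineage cells from the stage at which Cd4 is expressed, and only mice with active β-catenin carried it, so that the effects of Cre and of β-catenin cannot be told apart.

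In the absence of a Wnt signal the scaffold proteins Axin and Apc hold cytoplasmic β-catenin beside casein kinase 1α, which primes it, and the GSK3 kinases, which then phosphorylate its amino terminus. The F-box protein βTrCP, encoded by Btrc, recognises the phosphorylated form and brings it to a ubiquitin ligase for destruction. When Wnt binds its receptors, Dishevelled proteins draw Axin to the membrane, phosphorylation of β-catenin stops and β-catenin enters the nucleus as a partner of the TCF/LEF factors, which in the thymus also guide T cell development.

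Values are MAS5 signals, in which every array had been scaled to the same trimmed mean. A probe set was tested if it was at or above the median signal of its array (9.9 to 15.2) on at least 2 arrays, and called at a limma adjusted p under 0.05 over all 26421 probe sets tested. Background can be read from 27 probe sets for bacterial transcripts, the brightest of which reached 7.8 to 13.9 on tumour arrays and 2.4 to 5 on sorted arrays. Tumours were labelled from 2.5 µg RNA by the standard protocol and sorted cells from 0.1 µg with an amplification kit, so that transformation, age, sorting and labelling cannot be told apart in the tumour comparisons. The log2 ratio of the 3′ to the 5′ probe set of β-actin was 0.54 to 1.14 on tumour arrays and 0.20 to 0.35 on sorted arrays. For Gapdh the same ratio overlapped, at −0.53 to −0.10 on tumour arrays and −0.34 to −0.01 on sorted arrays. Of 9 measured markers of double-positive thymocytes, 8 were above the bacterial probe sets on every tumour array and 9 on every sorted array. The exception was Ptcra, at 2.7 to 6.8 on tumour arrays and 213.6 to 371.9 on sorted arrays. The summed signal of the 9 was 9749.6 to 14609.8 on tumour arrays and 22716 to 26003 on sorted arrays, and 7 of them lay lower in every tumour than on any sorted array, among them Rag2 (48.4 to 201.4 against 855 to 1169) and Cd3e (415 to 548 against 1651 to 2229). Cd4 and Cd2 overlapped between tumours and sorted cells. The summed signal of 11 myeloid markers was 8241, 657, 7911 and 8215 in tumours 1 to 4, 802 to 1151 in pre-transformed cells and 999 to 1015 in controls. On sorted arrays most of it was Cst3 (577.2 to 770.2, against 484.9 to 680 in tumours). The summed signal of 5 B cell markers was 402, 18.9, 337 and 487 in tumours 1 to 4 and 222 to 280 on sorted arrays, but its members went both ways. On sorted arrays it was mostly Cd79b (195.8 to 253.9, against 1.3 to 108.5 in tumours). Ms4a1 read 1.5 to 8.9 on sorted arrays and 197.9, 5.0, 138.9 and 269.7 in tumours 1 to 4. The sum of 10 stromal and endothelial markers was 468 to 1792 in tumours, mostly Igfbp7 (292.5 to 1545). On sorted arrays it was 152 to 210, mostly Pecam1 (122.3 to 172.1, against 135 to 310.7 in tumours). In tumour 2, 6 of the 11 myeloid markers, Lyz2 and S100a8 among them, and 4 of the 5 B cell markers, Cd79a among them, were under its brightest bacterial probe set. Cst3 was at 484.9 in tumour 2, above background but its lowest value on any array, whereas the myeloid marker Itgam was at 113.2, its highest. In bulk RNA, fewer cells of a type and less RNA per cell cannot be told apart.

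Of the 28 probe sets, 25 of 8 genes were tested. The other 3, which were too dim, are Dvl3 1420457_at, the only probe set of that gene, Apc 1420957_at and Csnk1a1 1451497_at. Dvl3 read 0.6, 0.8, 1.7 and 0.7 on tumour arrays, 3.4, 1.7 and 1.6 on pre-transformed arrays and 1.6 and 3.4 on control arrays, below the brightest bacterial probe set on all 9. Its transcript was therefore not detectable by this probe set in any group. Below, each gene is led by its tested probe set with the highest mean log2 signal.

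Active β-catenin before transformation went with no called change in these genes. In pre-transformed against control thymocytes limma called 0 of the 25 probe sets, where it called 0.833% of all tested probe sets. With an unadjusted p under 0.05 there were 4, all higher in pre-transformed cells, as were 10.2% of all tested probe sets: the 3 tested probe sets of Apc and Csnk1a1 1437923_at. The 8 lead probe sets had log2 changes from −0.27 for Btrc to 0.33 for Apc. The arrays of the groups did not overlap for 10 of the 25, against 35.5% of all tested probe sets. The median change was 0.12 over the 25 and 0.04 over all tested probe sets.

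In tumours most of these genes were lower, as were most markers of double-positive thymocytes, whose part in the result was not tested. Against pre-transformed thymocytes, 1 of the 25 probe sets was called higher (23.1% of all tested probe sets were) and 14 were called lower (26.7% of all tested), and the calls fell in 7 genes. Probe sets of 1 gene are not independent, and 5 of the 14 were of Gsk3b. Of the 8 lead probe sets in the same fit, 1 was called higher and 5 lower, against 23.1% and 29.9% of all lead probe sets. The median log2 change was −0.95 over the 25 and −0.12 over all tested probe sets. The largest falls of lead probe sets were those of Gsk3b, Dvl1 and Apc, and the only rise was that of the lead probe set of Csnk1a1. For 17 of the 25 the arrays of the groups did not overlap, against 54.1% of all tested probe sets. With every array centred on the median of all probe sets the split was 0 higher and 17 lower for these genes and 4310 higher and 8816 lower for all tested probe sets. Centring on the median of the tested probe sets instead gave 2 higher and 9 lower, against 7568 higher and 5285 lower, and moved the median of all tested probe sets to 0.16 rather than −0.38.

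Against control thymocytes, with which the first comparison shares the tumour arrays, 1 of the 25 was called higher (19.4% of all tested) and 10 were called lower (20.5% of all tested), in 5 genes. Of the 8 lead probe sets 1 was called higher and 4 lower, against 19.6% and 23.9% of all lead probe sets. The median log2 change was −0.67 over the 25 and −0.05 over all tested probe sets, and 19 of the 25 had arrays that did not overlap, against 57.4% of all tested. The count of 11 calls rests on both controls, since it was 4 without control 1 and 6 without control 2. With every array centred on the median of all probe sets the split was 0 higher and 15 lower, against 2792 higher and 7998 lower for all tested probe sets. Centring on the median of the tested probe sets instead kept 8 of the 11 calls, where 6036 of all tested probe sets were called higher and 4275 lower. Tumour 2 alone, the tumour with the lowest sums of myeloid and B cell markers, gave 2 higher and 17 lower against pre-transformed cells (24% and 37% of all tested probe sets) and 3 higher and 18 lower against controls (22.5% and 34.1%), on the assumption that a single tumour varies like the sorted groups.

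**Figure D1:**
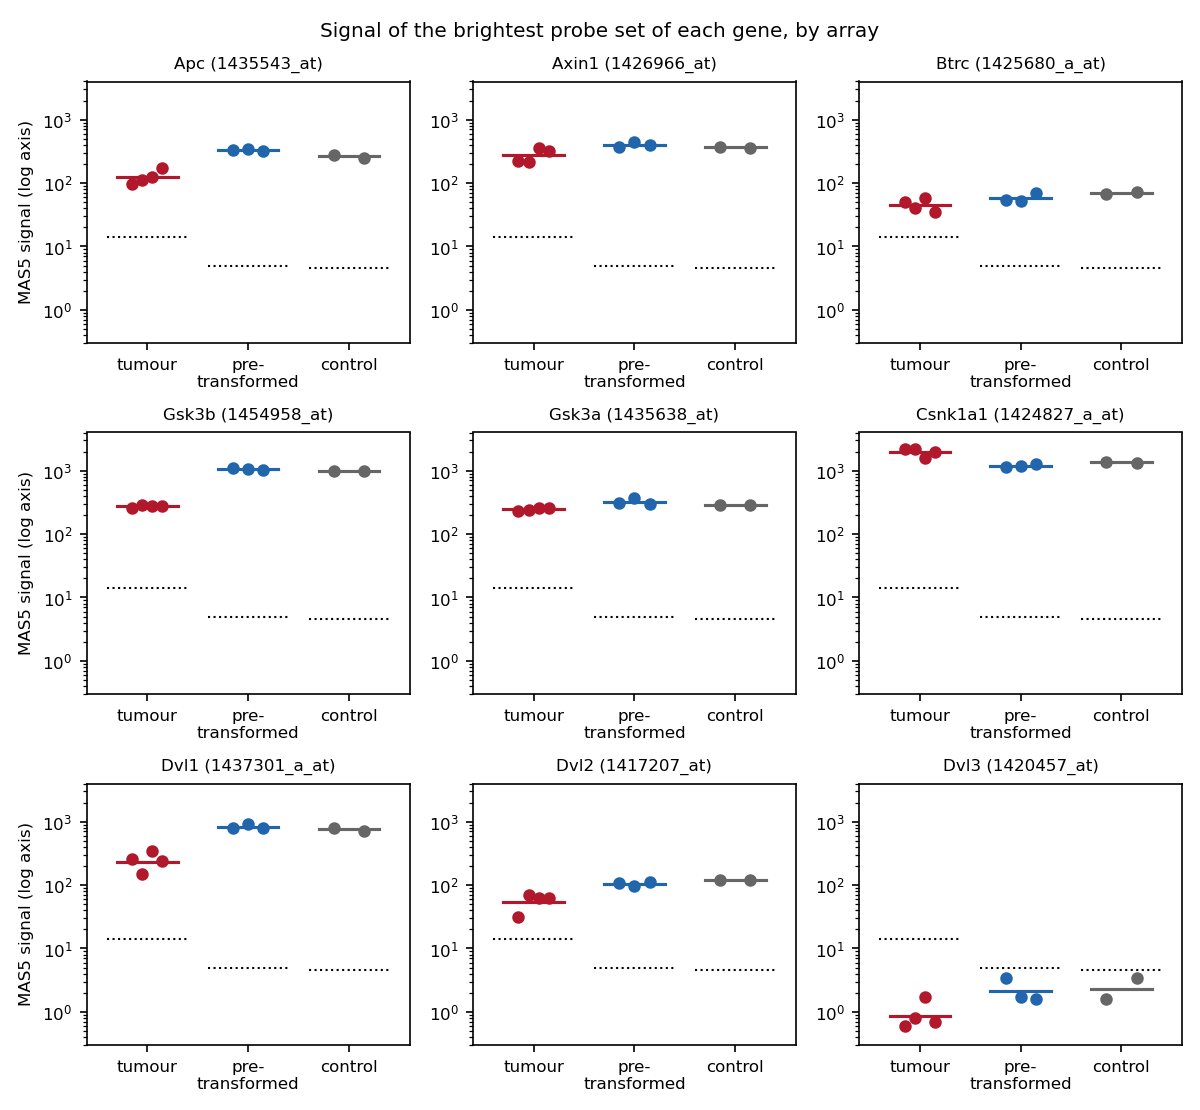
MAS5 signal (log axis) of the lead probe set of each gene, and of the only probe set of Dvl3, on 4 tumour, 3 pre-transformed and 2 control arrays. Points are arrays, solid lines geometric means and dotted lines the highest bacterial probe set of the group. Gsk3b, Dvl1, Apc and Dvl2 lie lower in every tumour than on any sorted array, Csnk1a1 lies higher, and Dvl3 stays below the dotted lines.

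**Figure D2:**
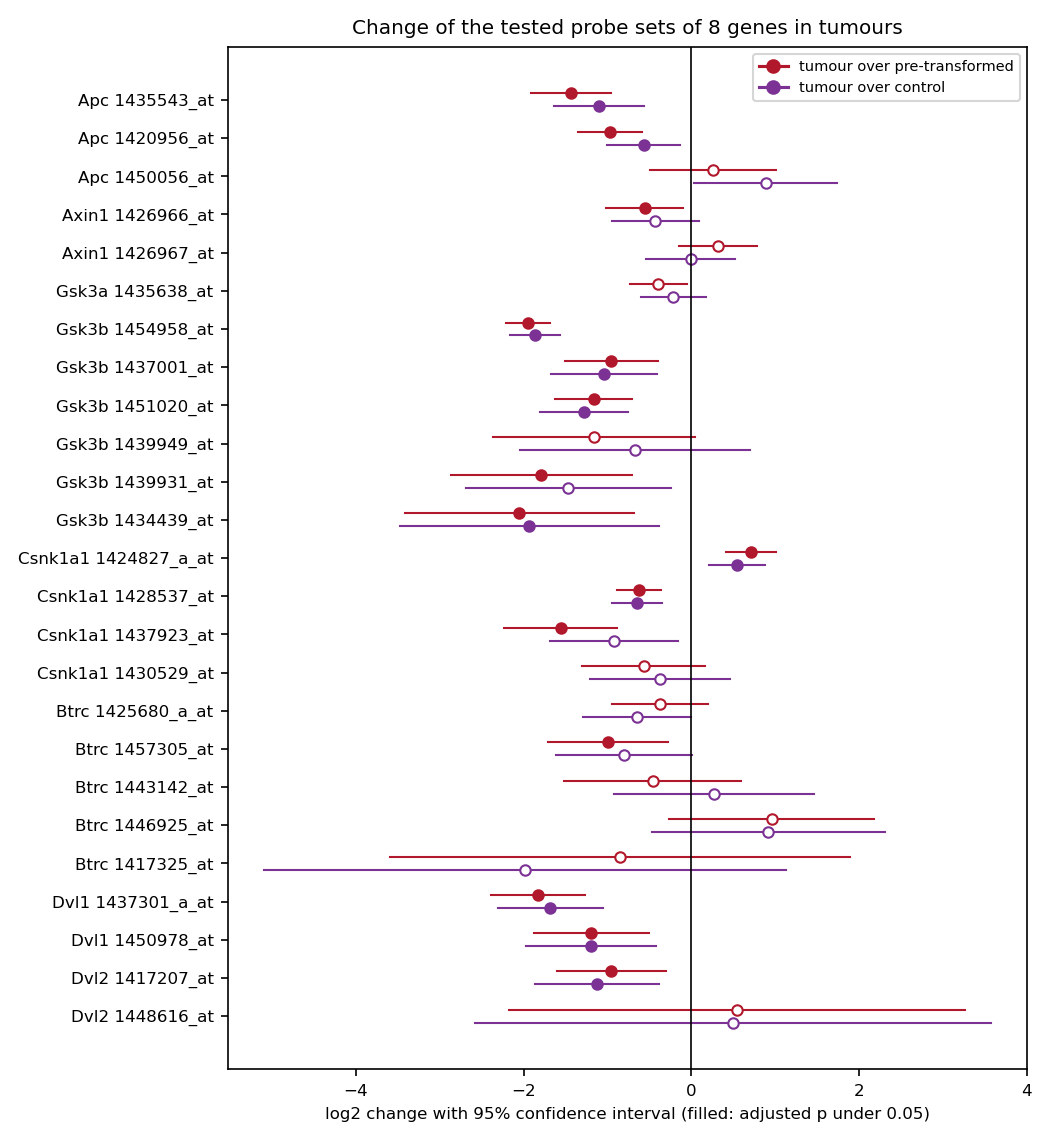
Log2 change of the 25 tested probe sets in tumours over pre-transformed cells (red) and over controls (purple), with 95% confidence intervals from the limma fit on 9 arrays. Filled points have an adjusted p under 0.05. All called changes lie left of 0 except those of Csnk1a1 1424827_a_at, at 0.71 and 0.55.

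The scaffold Apc, a tumour suppressor whose loss stabilises β-catenin in the intestine, fell in tumours. Its lead probe set 1435543_at read 96.3, 111.8, 123.9 and 176.0 on tumour arrays, 338.2, 338.8 and 325.4 on pre-transformed arrays and 281.6 and 250 on control arrays. Every tumour was below every sorted array, and the 3 pre-transformed arrays were above both controls. The geometric mean was 124 in tumours (SD 0.37 on the log2 scale, n = 4), 334 in pre-transformed cells (SD 0.03, n = 3) and 265 in controls (SD 0.12, n = 2). That is a log2 change of −1.43 ± 0.21 (SE) against pre-transformed cells, or 2.70-fold lower (adjusted p = 0.000517), and of −1.10 ± 0.24 against controls (adjusted p = 0.00612, or 0.0721 without control 1). Between pre-transformed cells and controls the log2 change of 0.33 ± 0.12 did not pass (adjusted p = 0.216).

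The second Apc probe set, 1420956_at, showed the same order of groups, with 121.2, 156.4, 151.3 and 172.7 on tumour arrays, 291.3, 291.3 and 293.9 on pre-transformed arrays and 205.9 and 237.0 on control arrays. It fell by 0.97 on the log2 scale in tumours against pre-transformed cells (adjusted p = 0.00136) and by 0.57 against controls (adjusted p = 0.042), a call that was lost in 11 of 21 alternatives. Its log2 change of 0.40 between pre-transformed cells and controls had an adjusted p of 0.164. The third, 1450056_at, went the other way without passing: 26.1, 45.9, 25.9 and 51.5 on tumour arrays, 26.5, 32.2 and 30.8 on pre-transformed arrays and 16.2 and 22.8 on control arrays. Its log2 change was 0.26 against pre-transformed cells (adjusted p = 0.545) and 0.89 against controls (adjusted p = 0.0893). The untested 1420957_at stood at 0.7 to 3.0 on tumour arrays, below background, and at 7.0 to 10.4 on sorted arrays.

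Axin1, the scaffold that limits the amount of complex in many cells, was lower in tumours by a margin near the threshold. Its lead probe set 1426966_at read 223.5, 217.4, 359.9 and 317.0 on tumour arrays, 373.4, 442.3 and 391.6 on pre-transformed arrays and 374.5 and 361.1 on control arrays. All 4 tumours were below all sorted arrays, tumours 3 and 4 narrowly. The log2 change against pre-transformed cells was −0.56 ± 0.20 (adjusted p = 0.0449) and its call was kept in 9 of 22 alternatives. Against controls it was −0.43 ± 0.23 (adjusted p = 0.163). The other Axin1 probe set, 1426967_at, read 56.0, 56.0, 65.6 and 67.0 on tumour arrays, 44.9, 47.5 and 54.9 on pre-transformed arrays and 65.4 and 57.3 on control arrays. It did not pass in any comparison, with a log2 change of 0.32 against pre-transformed cells (adjusted p = 0.231) and of −0.01 against controls (adjusted p = 0.984).

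The kinase genes Gsk3b and Gsk3a encode close paralogs that phosphorylate β-catenin interchangeably in many cell types, and their probe sets moved by different amounts. The 250 bases before the RefSeq start of each gene (GRCm38.p6) are shown because they hold the same core motif of the TCF/LEF factors, CTTTGA or its complement TCAAAG, 1 time each. Capitals mark it, 77 bases before the start of Gsk3b and 157 bases before that of Gsk3a. The Gsk3b stretch lies at chr16:38088751-38089000 on the plus strand and the Gsk3a stretch at chr7:25237852-25238101 on the minus strand, both written 5′ to 3′ on the strand of the gene.
Gsk3b: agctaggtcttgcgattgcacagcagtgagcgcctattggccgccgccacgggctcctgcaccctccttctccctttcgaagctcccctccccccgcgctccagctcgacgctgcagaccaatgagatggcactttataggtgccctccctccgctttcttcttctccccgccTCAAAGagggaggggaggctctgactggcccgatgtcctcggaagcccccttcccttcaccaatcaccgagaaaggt
Gsk3a: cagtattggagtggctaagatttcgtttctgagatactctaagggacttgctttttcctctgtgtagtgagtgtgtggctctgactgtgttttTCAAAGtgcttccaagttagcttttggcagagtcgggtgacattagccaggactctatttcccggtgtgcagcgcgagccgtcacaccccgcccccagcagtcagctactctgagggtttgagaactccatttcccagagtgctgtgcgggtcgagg
The motif, searched on both strands, is in 13.8% of 32851 RefSeq promoter windows of this length, so that its presence is a description of these letters and not a binding site.

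Gsk3b fell in every tumour and to nearly the same level. Its lead probe set 1454958_at read 258.8, 287.7, 274.9 and 274.3 on tumour arrays, 1097.0, 1054.4 and 1020.2 on pre-transformed arrays and 991.3 and 1000.6 on control arrays. The spread within each group was small beside the gap between tumours and sorted cells. The geometric means were 274 in tumours (SD 0.06 on the log2 scale, n = 4), 1057 in pre-transformed cells (SD 0.05, n = 3) and 996 in controls (SD 0.01, n = 2). Against pre-transformed cells the signal was 3.86-fold lower, a log2 change of −1.95 ± 0.12 (95% interval −2.21 to −1.69, adjusted p = 9.59e-06). Against controls it was 3.64-fold lower, −1.86 ± 0.13 (adjusted p = 4.42e-05). Both calls were kept in all 22 alternatives run. Pre-transformed cells and controls differed by 0.09 ± 0.10, with a 95% interval of −0.14 to 0.32 (adjusted p = 0.717).

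The 5 other probe sets of Gsk3b were also lower in tumours on average, and 4 of them were called against pre-transformed cells. The signal of 1451020_at was 77.4, 110.4, 103.9 and 133.4 on tumour arrays, 232.2, 213.6 and 257.8 on pre-transformed arrays and 248.2 and 258.3 on control arrays, a log2 change of −1.16 against pre-transformed cells (adjusted p = 0.00142) and −1.28 against controls (adjusted p = 0.0026). For 1437001_at it was 114.5, 135.1, 136.4 and 151.4 on tumour arrays, 246.8, 180.3 and 388.8 on pre-transformed arrays and 268.3 and 280.4 on control arrays, a log2 change of −0.95 (adjusted p = 0.0107) and −1.04 (adjusted p = 0.0168, above 0.05 without either control). The tumours did not overlap with the sorted cells on either. On the remaining 3, tumour 2 was the lowest array: 1439931_at read 50.5, 22.6, 95.0 and 108.4 in tumours and 144.2 to 256.3 on sorted arrays, and fell by 1.79 against pre-transformed cells (adjusted p = 0.0121), while its log2 change of −1.47 against controls did not pass (adjusted p = 0.0566). For 1434439_at the tumours read 10.1, 2.8, 17.8 and 14.7 and the sorted arrays 25.5 to 58.2, with log2 changes of −2.05 (adjusted p = 0.0191) and −1.93 (adjusted p = 0.0493), tumour 2 being below its background. The call against controls was lost in 10 of 21 alternatives, and with signals under 20 raised to 20 the log2 changes were −0.94 (adjusted p = 0.0196) and −0.82 (adjusted p = 0.0618). The last, 1439949_at, overlapped between groups, with 70.8, 29.3, 134.4 and 168.7 in tumours and 114.9 to 240.7 on sorted arrays, and its log2 change of −1.16 against pre-transformed cells did not pass (adjusted p = 0.0996).

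Gsk3a had 1 probe set, 1435638_at, and a smaller difference. It read 227.5, 237.8, 257.8 and 261.2 on tumour arrays, 303.6, 375.6 and 295.0 on pre-transformed arrays and 282.7 and 287.3 on control arrays. The tumours were again below all sorted arrays, but closer to them. The log2 change of −0.39 ± 0.15 against pre-transformed cells (95% interval −0.73 to −0.05) did not pass (adjusted p = 0.0543, and 0.0203 with every array centred on its median over all probe sets). Nor did −0.21 ± 0.17 against controls (95% interval −0.60 to 0.17, adjusted p = 0.344). To compare the paralogs directly, the log2 ratio of Gsk3b 1454958_at to Gsk3a 1435638_at was taken within each array, which is free of any scaling of the arrays. It was 0.07 to 0.27 on the 4 tumour arrays and 1.49 to 1.85 on the 5 sorted arrays. The difference of the means, −1.59, had p = 0.0159 (exact two-sided permutation test, the smallest p that 126 arrangements allow, adjusted p = 0.0238 over 3 such ratios, which were chosen after their values were seen). Against the 3 pre-transformed arrays alone the smallest p that an exact permutation test can give is 0.0571, which it gave. The separation was plain in the signals before the ratio was chosen, so that these p-values add no support to it. Its size rests on the lead probe set of Gsk3b. The 6 probe sets of Gsk3b had log2 changes from −2.05 to −0.95 against pre-transformed cells.

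Csnk1a1, the gene of the priming kinase casein kinase 1α, had probe sets that changed in opposite directions. The lead probe set 1424827_a_at read 2187.1, 2217.1, 1589.4 and 1964.1 on tumour arrays, 1161.2, 1198.2 and 1260.9 on pre-transformed arrays and 1380.0 and 1324.4 on control arrays. All tumours lay above all sorted arrays. It rose 1.64-fold against pre-transformed cells, a log2 change of 0.71 ± 0.13 (adjusted p = 0.00193), and 1.46-fold against controls, 0.55 ± 0.15 (adjusted p = 0.0181). With every array centred on its median over all probe sets these were 0.45 (adjusted p = 0.101) and 0.16 (adjusted p = 0.631), so that both calls depend on the scaling. The call against controls was also lost without either control (adjusted p = 0.0935 and 0.115).

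A second probe set of the gene, 1428537_at, fell: it read 798.8, 923.9, 866.2 and 971.5 on tumour arrays, 1482.5, 1286.7 and 1340.4 on pre-transformed arrays and 1391.7 and 1385.4 on control arrays. Here every tumour lay below every sorted array, with log2 changes of −0.62 ± 0.12 (adjusted p = 0.00185) and −0.65 ± 0.13 (adjusted p = 0.00439). The fall was not called when arrays were centred on the median of the tested probe sets (−0.34, adjusted p = 0.0945, and −0.44, adjusted p = 0.0704). The log2 ratio of the first to the second probe set within an array does not depend on scaling, and was 0.88 to 1.45 on tumour arrays and −0.35 to −0.01 on sorted arrays. That difference of 1.28 had p = 0.0159 (exact two-sided permutation test, adjusted p = 0.0238 over 3 ratios chosen after their values were seen). Both probe sets already separated tumours from sorted arrays, in opposite directions. The test could therefore only give its smallest p, which adds no support. The suffix _a marks a probe set that matches several transcripts of its gene, and which transcripts each probe set reads was not analysed here. Another probe set, 1437923_at, read 214.1, 118.6, 311.9 and 280.7 on tumour arrays, 562.3, 678.3 and 684.0 on pre-transformed arrays and 444.9 and 378.9 on control arrays. It fell by 1.56 against pre-transformed cells (adjusted p = 0.00222). Against controls the log2 change was −0.92 (adjusted p = 0.0555), and between pre-transformed cells and controls it was 0.64 ± 0.14 (adjusted p = 0.0806), with all 3 pre-transformed arrays above both controls. The fourth tested, 1430529_at, read 71.2, 29.0, 53.8 and 71.3 on tumour arrays and 64.7 to 85.6 on sorted arrays and passed in no comparison. The untested 1451497_at read 3.9, 9.6, 18.5 and 10.6 on tumour arrays, 6.4, 10.3 and 6.2 on pre-transformed arrays and 1.9 and 1.3 on control arrays. It was above background on 2 of 4 tumour, 3 of 3 pre-transformed and 0 of 2 control arrays.

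**Figure D3:**
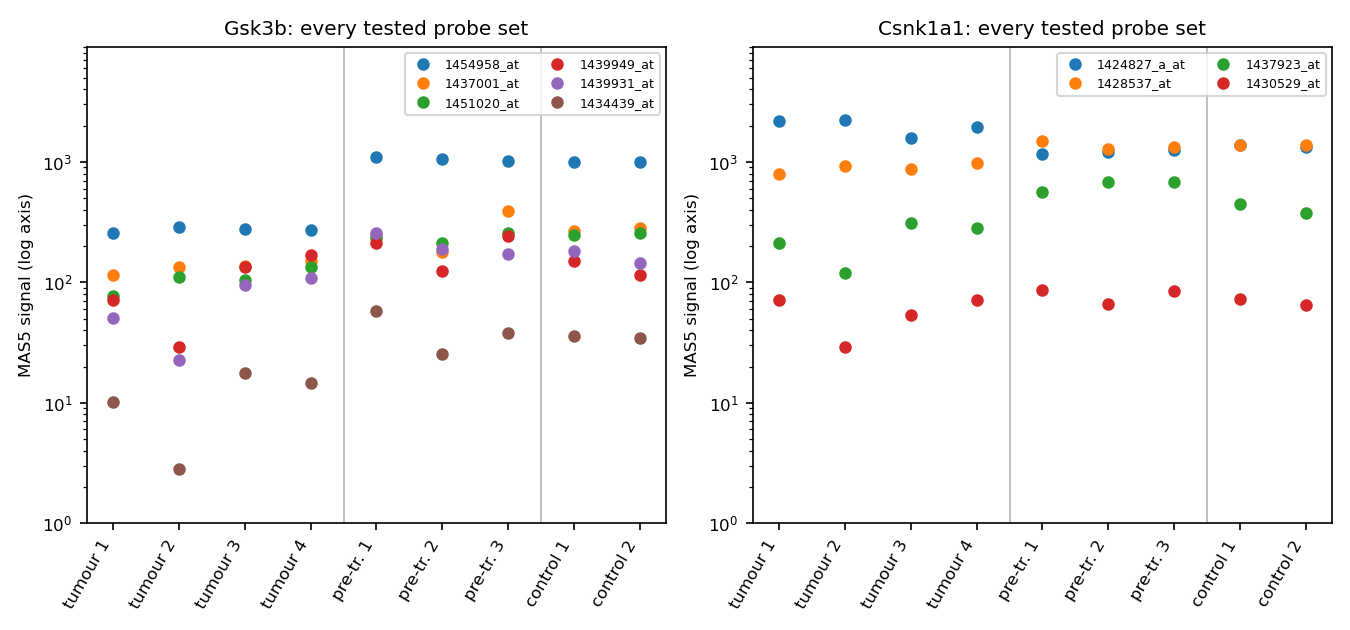
MAS5 signal (log axis) of every tested probe set of Gsk3b (left, 6 probe sets) and Csnk1a1 (right, 4 probe sets) on each array, with tumours first and colours standing for probe sets. The Gsk3b probe sets lie lower in tumours, whereas Csnk1a1 1424827_a_at lies higher in tumours (1589.4 to 2217.1) and 1428537_at lower (798.8 to 971.5).

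Btrc, the gene of the F-box protein that recognises phosphorylated β-catenin, was not called on its lead probe set. Its lead probe set 1425680_a_at read 49.6, 40.4, 58.6 and 34.5 on tumour arrays, 53.9, 52.0 and 70.0 on pre-transformed arrays and 66.8 and 73.4 on control arrays. Tumours overlapped with pre-transformed cells but not with controls. The log2 change was −0.37 ± 0.25 against pre-transformed cells (95% interval −0.94 to 0.20, adjusted p = 0.244) and −0.64 ± 0.29 against controls (adjusted p = 0.101). A dimmer probe set, 1457305_at, read 27.9, 15.1, 19.8 and 16.3 on tumour arrays, 51.9, 32.4 and 33.0 on pre-transformed arrays and 34.8 and 32.2 on control arrays. It fell by 0.99 against pre-transformed cells (adjusted p = 0.0274, call kept in 16 of 21 alternatives) and had a log2 change of −0.80 against controls (adjusted p = 0.104). The other 3 probe sets of Btrc, which ran from 0.6 to 31.0 over the 9 arrays, were called in no comparison.

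Of the Dishevelled genes, which carry the Wnt signal from the receptor to the complex, Dvl1 and Dvl2 fell in tumours. The 250 bases before their RefSeq starts (GRCm38.p6) are shown as a pair because they differ in the motif searched as a second one, the E-box CACGTG, a core site of Myc and related factors that reads the same on both strands. Capitals mark it in the Dvl2 stretch, where it starts 123, 76 and 33 bases before the gene, and the Dvl1 stretch has none. The TCF/LEF core is in neither. Dvl1 lies at chr4:155847152-155847401 and Dvl2 at chr11:70000342-70000591, both on the plus strand.
Dvl1: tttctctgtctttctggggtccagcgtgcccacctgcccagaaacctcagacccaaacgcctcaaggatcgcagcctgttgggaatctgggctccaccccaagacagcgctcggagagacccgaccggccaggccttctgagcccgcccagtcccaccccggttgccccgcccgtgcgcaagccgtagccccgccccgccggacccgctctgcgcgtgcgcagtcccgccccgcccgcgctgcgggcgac
Dvl2: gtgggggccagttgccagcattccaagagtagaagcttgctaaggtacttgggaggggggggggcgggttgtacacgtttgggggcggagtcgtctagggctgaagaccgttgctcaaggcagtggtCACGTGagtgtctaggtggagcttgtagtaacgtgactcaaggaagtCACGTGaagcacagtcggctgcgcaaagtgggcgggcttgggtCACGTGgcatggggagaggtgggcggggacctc
Of all 32851 windows of this length, 6.02% hold the E-box at least 1 time and 0.0609% at least 3 times, and these letters alone say nothing of binding.

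Dvl1 showed, after Gsk3b, the largest fall of a lead probe set. Its 1437301_a_at read 258.1, 146.8, 340.6 and 237.0 on tumour arrays, 800.6, 903.1 and 801.9 on pre-transformed arrays and 801.0 and 708.0 on control arrays. The highest tumour, tumour 3, stood under the lowest sorted array by a wide margin. Geometric means were 235 in tumours (SD 0.51 on the log2 scale, n = 4), 834 in pre-transformed cells (SD 0.10, n = 3) and 753 in controls (SD 0.13, n = 2). It was 3.55-fold lower than in pre-transformed cells, a log2 change of −1.83 ± 0.25 (adjusted p = 0.000322), and 3.20-fold lower than in controls, −1.68 ± 0.28 (adjusted p = 0.00167), and both calls were kept in all 22 alternatives. The second probe set, 1450978_at, read 86.9, 61.7, 154.8 and 100.5 on tumour arrays, 185.5, 241.1 and 232.8 on pre-transformed arrays and 271.1 and 175.6 on control arrays. It fell by 1.19 against each sorted group (adjusted p = 0.00966 and 0.0221). Tumour 3 was the highest and tumour 2 the lowest tumour on both probe sets, while tumours 1 and 4 changed places. The call of 1450978_at against controls was lost without control 1 (adjusted p = 0.210).

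Dvl2 1417207_at read 31.1, 69.5, 62.9 and 63.6 on tumour arrays, 109.0, 95.4 and 111.3 on pre-transformed arrays and 118.3 and 118.4 on control arrays. No tumour reached a sorted array, and tumour 1 stood apart from the other 3. The log2 change was −0.95 ± 0.29 against pre-transformed cells (adjusted p = 0.0212) and −1.13 ± 0.33 against controls (adjusted p = 0.0224). With quantile normalization these were −0.73 (adjusted p = 0.0696) and −0.96 (adjusted p = 0.0501), and neither passed. The calls were also lost without pre-transformed 1 or 3 in the first comparison and without either control in the second. The other Dvl2 probe set, 1448616_at, was near background, with 17.6, 29.1, 11.0 and 0.5 on tumour arrays and 4.0 to 6.2 on sorted arrays, and was not called. The log2 ratio of Dvl1 1437301_a_at to Dvl2 1417207_at within an array was 1.08 to 3.05 on tumour arrays and 2.58 to 3.24 on sorted arrays, and the difference of −0.74 did not pass (exact two-sided permutation test, p = 0.127, adjusted p = 0.127 over 3 ratios).

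Over the 8 lead probe sets, tumours had the lowest group mean for 7 and the highest for Csnk1a1. Pre-transformed cells had the highest mean for Apc, Axin1, Gsk3a, Gsk3b and Dvl1 and controls for Btrc and Dvl2, but in none of the 8 did these groups pass the test against each other. Tumours did not pass against their nearest group for Axin1 and Gsk3a (controls) and for Btrc (pre-transformed cells). The tumours also varied among themselves. Tumour 2 was the lowest of the 4 for 11 of the 25 probe sets and tumour 1 for 9, whereas tumour 4 was the highest for 12 and tumour 3 for 6. Among the tumours, tumour 2 was the lowest for 10 of the 11 myeloid markers, Itgam being highest there, and for 4 of the 5 B cell markers. The part of these markers in the differences was not tested.

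The other genes of the pathway were read from 7 lists of partners of these proteins, 43 genes of which 35 were tested by their lead probe set. Against pre-transformed thymocytes 5 were called higher in tumours (23.1% of the 11644 lead probe sets) and 13 lower (29.9%), with a median log2 change of −0.09, against −0.12 over all lead probe sets. The counts by list below belong to this comparison and are to be read beside these shares. Against controls 6 were higher (19.6%) and 11 lower (23.9%). In pre-transformed cells against controls 1 was higher, Dact1, and 0 were lower (0.945% of lead probe sets were called), while at an unadjusted p under 0.05 limma gave 5 higher and 4 lower, with 16.5% of all lead probe sets under that p in either direction.

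Ctnnb1, the gene of β-catenin itself, depended on the probe set. Its lead probe set 1420811_a_at read 2241.4, 3320.0, 3580.2 and 3725.8 on tumour arrays and 2421.2 to 2775.2 on sorted arrays and did not pass against pre-transformed cells (log2 change 0.24, adjusted p = 0.258). A second, 1430533_a_at, read 440.6, 524.1, 423.5 and 413.4 on tumour arrays, 69.7, 75.2 and 99.3 on pre-transformed arrays and 67.9 and 54.1 on control arrays. It rose by 2.48 on the log2 scale against pre-transformed cells (adjusted p = 2.31e-05) and by 2.89 against controls (adjusted p = 5.76e-05). The third, 1450008_a_at, rose by 0.57 (adjusted p = 0.00724) and 0.69 (adjusted p = 0.00773). Whether any of them reads the transcript of the R26NC allele was not tested.

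By their lead probe sets, scaffold partners fell in 2 of 5 tested genes against pre-transformed cells and rose in 0: Amer1, which binds Apc, with a log2 change of −1.26 (adjusted p = 0.00127), and Rnf146, a ubiquitin ligase that acts on Axin, with −1.25 (adjusted p = 0.000282). Tnks2 was not called on its lead probe set (0.04), but 1 of its 2 other tested probe sets was called lower. Axin2, a paralog of Axin1 and a target of the pathway, read 127.2, 193.8, 251.2 and 146.4 on tumour arrays, 136.2, 137.4 and 141.0 on pre-transformed arrays and 94.8 and 70.0 on control arrays. It was called in tumours against controls (log2 change 1.09, adjusted p = 0.0141, or 0.137 without control 2) but not against pre-transformed cells (0.33, adjusted p = 0.300), nor in pre-transformed cells against controls (0.76, adjusted p = 0.0909). A dimmer Axin2 probe set, 1421341_at, read 18.6, 24.7, 6.6 and 9.8 on tumour arrays and 2.0 to 7.1 on sorted arrays. It too was called only in tumours against controls (log2 change 2.40, adjusted p = 0.0159). The lead probe sets of Axin1 and Axin2 thus had log2 changes of opposite sign in tumours against controls, −0.43 and 1.09.

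Other casein kinase genes fell in 4 of 7 and rose in 0 by their lead probe sets. Other probe sets of 2 genes whose lead was not called went up, however. These were 2 of 4 for Csnk1d and 1 of 5 for Csnk2a2, called higher in tumours against pre-transformed cells. Csnk1e, whose product phosphorylates Dishevelled, read 122.1, 133.3, 220.4 and 219.8 on tumour arrays, 629.7, 498.9 and 669.8 on pre-transformed arrays and 652.3 and 729.9 on control arrays. It fell by 1.83 against pre-transformed cells (adjusted p = 0.000298), and its 2 other tested probe sets were called lower as well. Csnk2a1, a catalytic subunit of casein kinase 2, fell by 2.50 (adjusted p = 2.51e-05), with 195.7, 172.4, 123.5 and 135.0 on tumour arrays and 708.9 to 1006.9 on sorted arrays. Of its 5 other tested probe sets 3 were called lower and 2 were not called. GSK3 binders fell in 2 of 3: Frat1, an inhibitor of GSK3, with a log2 change of −1.77 (adjusted p = 0.00356), and Gskip, with −0.66 (adjusted p = 0.0479, call kept in 7 of 22 alternatives). Frat1 was near background in tumours, at 14.2, 15.7, 21 and 7.1 and above it on 3 of 4, and read 43.4 to 61.8 on sorted arrays.

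Subunits of the phosphatase PP2A, which opposes the kinases of the complex, rose in 3 of 9 and fell in 1. Ppp2r1b rose by 0.75 (adjusted p = 0.0051) and Ppp2cb by 0.65 (adjusted p = 0.0186). The lead probe set of Ppp2r5c rose by 1.06 (adjusted p = 0.000219), but 2 of its 6 other tested probe sets were called lower. Ppp2r5b read 2.5, 6.7, 21.8 and 7.0 on tumour arrays, above background on 1 of 4, and 48.8 to 58.2 on sorted arrays. Its log2 change of −2.86 (adjusted p = 0.00348) thus rests in 3 of 4 tumours on signals within background, and with signals under 20 raised to 20 it was −1.34 (adjusted p = 3.22e-05). Among subunits of the ubiquitin ligase that takes βTrCP as its adaptor, the cullin gene Cul1 rose and the RING subunit gene Rbx1 fell. Cul1 read 429.7, 574.2, 351.7 and 452.3 on tumour arrays and 178.0 to 208.5 on sorted arrays (log2 change 1.23, adjusted p = 0.000555), and Rbx1 24.8, 16.5, 23.1 and 24.4 on tumour arrays and 75.6 to 148.7 on sorted arrays (−2.44, adjusted p = 7.18e-05). The paralog of Btrc, Fbxw11, fell by 0.52 on its lead probe set (adjusted p = 0.00569), while 1 of its 4 other tested probe sets was called higher.

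Regulators of Dishevelled moved in both directions, with 1 of 6 higher and 2 lower against pre-transformed cells. Nkd1, a Dishevelled antagonist and a known target of the pathway, read 14.0, 79.1, 54.1 and 17.4 on tumour arrays and 1.3 to 8.6 on sorted arrays, near background. Its log2 change was 2.65 (adjusted p = 0.0194), but 0.85 and not called with signals under 20 raised to 20 (adjusted p = 0.229). Its 2 other tested probe sets were called higher as well. For 1417278_a_at, at 32.3, 76.8, 60.5 and 20.6 on tumour arrays and 0.9 to 3.5 on sorted arrays, the log2 change was 4.84 (adjusted p = 0.000645). For 1429507_at, at 10.2 to 37.1 on tumour arrays and 3.4 to 6.9 on sorted arrays, it was 1.68 (adjusted p = 0.0285). Cxxc5, which binds Dishevelled, read 18.2, 2.4, 42.7 and 42.5 on tumour arrays, 238.5, 140.3 and 262.6 on pre-transformed arrays and 432.3 and 471.0 on control arrays. It fell by 3.62 against pre-transformed cells (adjusted p = 0.00674). Tumour 2 was below its background, and without it the log2 change was −2.69 (adjusted p = 0.000237). The log2 change of −1.13 in pre-transformed cells against controls did not pass (adjusted p = 0.0886). Dact1, a Dishevelled-binding protein, was the gene called before transformation: it read 68.3, 125.4, 138.0 and 142.8 on tumour arrays, 162.1, 174.3 and 122.9 on pre-transformed arrays and 32.9 and 28.7 on control arrays. Its log2 change was 2.30 in pre-transformed cells against controls (adjusted p = 0.00451) and 1.89 in tumours against controls (adjusted p = 0.00189). The call before transformation was lost without control 1, without control 2, with a common floor of 20 for dim signals, without a trend in the variance model and with all 9 arrays in the fit.

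**Figure D4:**
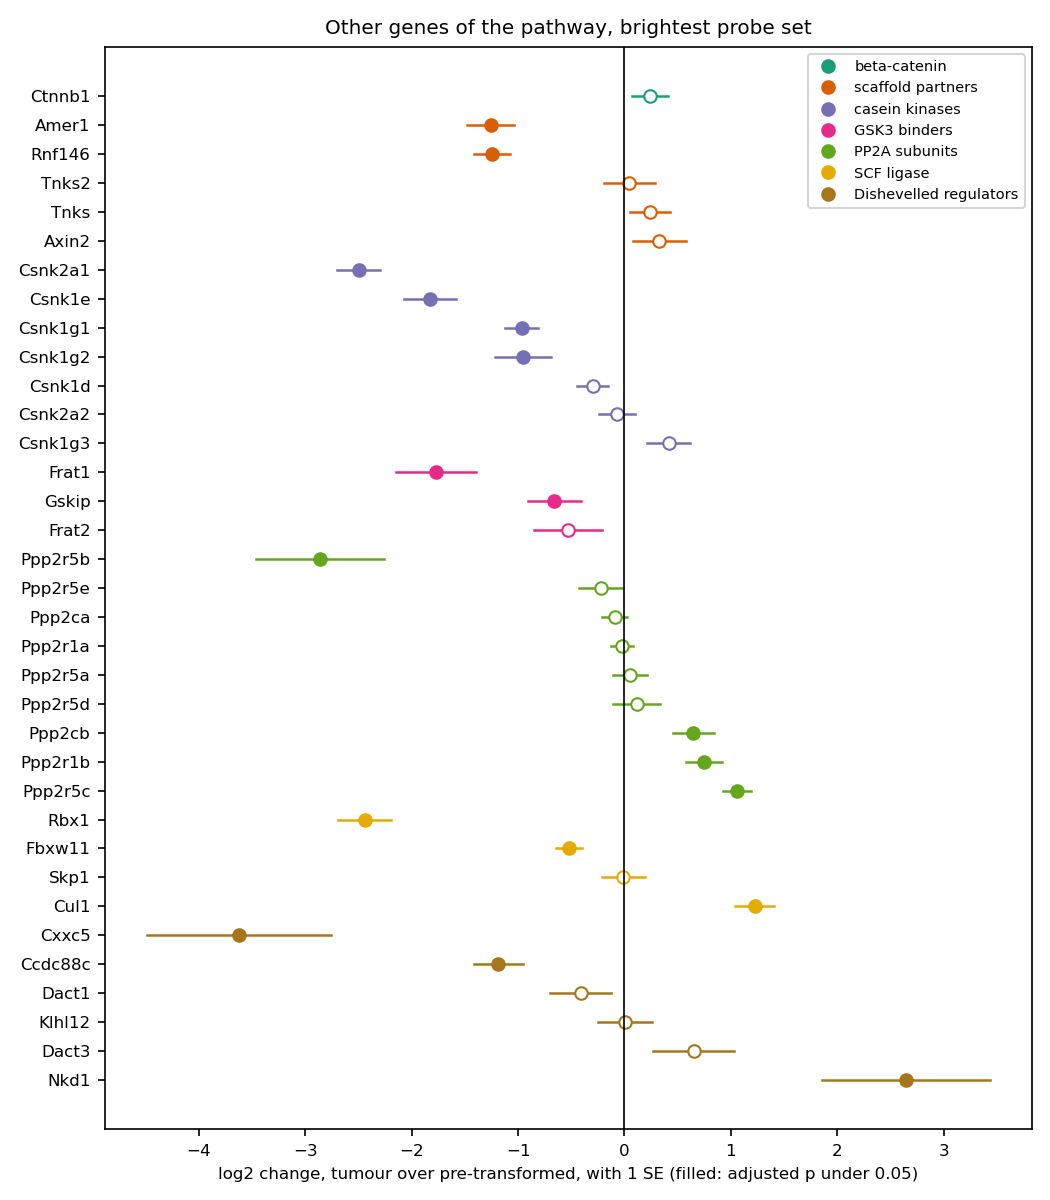
Log2 change of 35 other genes of the pathway in tumours over pre-transformed cells, by lead probe set, with 1 standard error and coloured by list. Filled points have an adjusted p under 0.05: 5 lie right of 0, among them Nkd1 at 2.65, and 13 lie left of it, down to Cxxc5 at −3.62, for which tumour 2 was below background.

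The genes whose patterns came closest were found among all lead probe sets by the root mean square difference of log2 signals over the 9 arrays, each gene centred on its own mean. Nearest to Gsk3b were Tbc1d22a (0.106), Ralgps2 (0.113) and Tollip (0.121), with log2 changes of −2.06, −1.96 and −1.91 in tumours against pre-transformed cells. Nearest to Csnk1a1, by 1424827_a_at, were Crnkl1 (0.0709), Smc6 (0.0769) and Parp2 (0.0794), with log2 changes of 0.62, 0.77 and 0.73. The 9 arrays are mainly 2 sets, tumours and sorted cells, so that likeness over them says little beyond a like difference between these sets.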

How the data were processed

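RNA of 4 thymic tumours and of sorted double-positive thymocytes of 3 pre-transformed and 2 control mice was read on 1 Affymetrix array per mouse. The authors deposited linear signal intensities for each probe set in a single table. The submitters' processing notes name MAS5, with the version not given in the sources used here. Each deposited array had a mean of 100 once the lowest and highest 2% of its 45101 probe sets were left out, as computed from the values. Gene symbols came from the platform annotation, which can be old, and no sequence of a probe was used.

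Deposited intensities were taken to log2, signals of 0 being set to 0.1, and were not normalized again. After removal of 64 control probe sets, 26421 of 45037 probe sets were tested, namely those that reached their array's median on 2 or more arrays. Linear models were fitted in limma 3.58.1 (R 4.3.3) by lmFit and eBayes with trend, and p-values were adjusted by the Benjamini-Hochberg method over all tested probe sets, also in every statement about these genes. The comparison before transformation used its 5 arrays alone, while tumours were compared in a fit of all 9 arrays. The method was tested on simulated data. Group signals are geometric means, and precision is limited by how few arrays each group has. The labels name separate mice, and same replicate numbers in different groups name different mice, so that none were paired (correlations of same-numbered deviations 0.0104 to 0.108).

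Every probe set of the 9 genes is described. Of the partner genes the text gives Ctnnb1, Axin2, those with the 5 largest called rises and falls in tumours against pre-transformed cells, and genes called before transformation. It also gives Amer1, Rnf146, Tnks2, Csnk1d, Csnk2a2, Frat1, Gskip and Fbxw11, chosen after their values were seen. The genes, lists and tests were chosen with earlier results of these data known. Alternatives were no filter, a filter on 5 arrays, quantile normalization, centring on the median of all probe sets, an offset of 16, 1 probe set per gene, no trend, array weights, other arrays in the fit, replicate number as a block and leaving out each array in turn. Chosen after seeing the data were a common floor of 20, centring on the median of the tested probe sets and tumour 2 as the only tumour. Motifs were searched in RefSeq sequences (GRCm38.p6), which covered 5 of the 9 genes, with Python 3.11.15, and figures drawn with matplotlib 3.10.9.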

Additional observations from a re-analysis of the deposited data

Results flagged for a closer look

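Among the 28 probe sets of these genes and 13 of named partners, 1 tumour array stood far from the other 3. Dvl2 1417207_at read 31.1 in tumour 1, against 62.9 to 69.5 in the other tumours, and the gap to the nearest of them made up 0.876 of the whole range on the log2 scale, above Dixon's 95% critical value for 4 arrays. Chance flags about 1 in 20 groups. Without tumour 1, Dvl2 was still called lower in tumours against pre-transformed cells (log2 change −0.69, adjusted p = 0.0152) and against controls (−0.86, adjusted p = 0.0126).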

How the results depend on the processing

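Members called before transformation stayed at 0 in every alternative run. For tumours against pre-transformed cells the count of 15 ran from 10 to 16 with 1 array left out. It was 7 of 8 (1 higher and 6 lower) with 1 probe set per gene, where only 8 are tested. In that setting 2785 of all 11644 genes were called higher and 3607 lower. For tumours against controls the count of 11 ran from 4 to 15 with 1 array left out. It was 5 of 8 with 1 probe set per gene, where 2387 of all 11644 genes were called higher and 2936 lower. With only these groups in the fit it was 7, where 4162 of all 26421 tested probe sets were called higher and 3726 lower. Quantile normalization gave 2 higher and 11 lower against pre-transformed cells (22.9% and 24.5% of all tested probe sets) and 0 higher and 8 lower against controls (17.8% and 19%). Partner genes called before transformation numbered 1, or 0 without the trend, with all 9 arrays in the fit and with the common floor, and 0 to 2 with 1 array left out. Those called in tumours against controls (17) ran from 9 to 21 with 1 array left out, 9 without either control. The cause of these shifts was not tested.

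With replicate number as a replicate block the counts were 0 before transformation, 16 in tumours against pre-transformed cells and 14 against controls. The numbers name different mice, same-numbered deviations correlated at 0.0104 to 0.108, and the block changed no call of a lead probe set. Of 39 values of lead or called probe sets 2 changed sign, neither of them called: in pre-transformed cells against controls, centring on the median of all probe sets gave −0.00565 for Axin1 1426966_at and −0.0465 for Gsk3b 1454958_at. Of 36 other values, none of them called, 12 changed sign and 13 were called in some alternative, 0 with a changed sign.

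Over all probe sets, calls before transformation (155 higher and 65 lower) were 48 and 10 with no filter, 2 and 1 without the trend, 11 and 2 with all 9 arrays, 325 and 157 with array weights, 89 and 54 with the replicate block, 11 and 13 with the common floor, 79 and 87 with arrays centred on the median of all probe sets, 23 and 5 without control 1, 9 and 2 without control 2, 95 and 49 without pre-transformed 2 and 27 and 10 without pre-transformed 3. Those in tumours against controls (5137 and 5418) were 2442 and 2205 without control 1 and 2881 and 2678 without control 2. Dim signals say less on tumour arrays, whose background was higher, and with 2 controls a change of moderate size before transformation can be missed.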
